A study of Mus musculus with 2 samples.

Results

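The genes of the mitochondrial respiratory chain were followed by genome and by complex in single bone marrow cells from wild-type (WT) and Nat10 conditional knockout (cKO) mice, where Nat10 encodes an RNA acetyltransferase. Members were chosen by symbol: the Nduf subunits of complex I, Sdha to Sdhd of complex II, the Uqcr genes and Cyc1 of complex III, the Cox4 to Cox8 genes of complex IV, the Atp5 genes of complex V, and the protein-coding mt- genes. Of 119 symbols with that form, 14 were -ps pseudogenes and 7 had under 50 unique molecular identifiers (UMIs, one per captured transcript) over both libraries. This left 98 members among 56748 genes in the matrices, of which 21476 reached 50 UMIs. Nuclear DNA encodes 85 members (38 in complex I, 4 in II, 9 in III, 16 in IV and 18 in V), and mitochondrial DNA encodes 13 (7 in complex I, 1 in III, 3 in IV and 2 in V). The 7 symbols left out for low counts were Ndufa4l2 (39 UMIs), Ndufa11b (17), Cox8b (12), Cox8c (10), Cox7b2 (6), Ndufb11b (1) and Ndufb4c (0). The members with fewest UMIs were Ndufs6b (55 in WT and 62 in cKO), Cox7a1 (179 and 183), Cox6c2 (199 and 186) and Cox4i2 (302 and 370).

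Both libraries are droplet 3′ single-cell RNA-seq of C57BL/6 bone marrow from which cells with lineage antigens had been removed with magnetic beads, so that stem and progenitor cells are enriched. There is 1 WT and 1 Nat10 cKO library. The series text speaks of 5 independent WT or cKO mice, and the files hold no map from cells to mice. The Cre driver and the deleted part of Nat10 are not given in the sources used here. With 1 library per genotype no test is possible, and every interval below covers counting error only, not the spread between mice. The WT file holds 15848 barcodes and 288303275 UMIs, the cKO file 13479 barcodes and 271499717 UMIs. Barcodes below 1000 UMIs or 500 genes, or above 10% mt- UMIs, were dropped, as were predicted doublets. This left 11945 WT and 10695 cKO cells, with medians of 18315 and 21450 UMIs per cell. Above 10% mt- UMIs were 733 of the WT and 1067 of the cKO barcodes. That limit thus cut the libraries unequally, and it bears on the mitochondrial members compared below. The libraries share 67 barcode sequences, 40 of them among those kept. Nat10 itself stood at 47.0 UMIs per 1000000 UMIs (CPM) in WT and 38.7 in cKO, a log2 ratio of -0.28 (95% interval -0.32 to -0.24), so its 3′ tags were lower but far from absent. Its ratio was below 0 in the 9 cell classes described below. In the class of stem cells and multipotent progenitors (47.5 and 40.8 CPM) it was -0.22 (-0.37 to -0.07), where the median of all genes was -0.13. In the erythroid progenitor class (77.2 and 52.5 CPM) it was -0.56, where that median was -0.10. In erythroblast-like, plasma-like and stromal cells the interval spanned 0. A 3′ tag outside the deleted part does not check the deletion. Among the depleted lineage antigens, Cd3e stood at 1.499 and 1.229 CPM in WT and cKO, Itgam at 6.36 and 2.31, and Ly6g at 0.537 and 0.449. Kit, the progenitor receptor, stood at 109 and 99.0 CPM, and Cd34, another progenitor marker, at 52.7 and 34.8 CPM.

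Complexes I to IV pass electrons from NADH and succinate to oxygen and, except complex II, pump protons across the inner mitochondrial membrane, and complex V, the ATP synthase, makes ATP from the returning protons. Complexes I, III, IV and V are built from subunits of both genomes, whereas complex II is wholly nuclear. The mitochondrial genes are transcribed as long polycistronic RNAs that are cut at the tRNAs between them. Blood stem cells are known to rely largely on glycolysis at rest and to raise oxidative phosphorylation as they differentiate, and red cell precursors need mitochondria for haem synthesis.

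Nuclear members made up a larger share of the RNA in the cKO library. Summed over the 85 genes they took 2.23% of all UMIs in WT and 2.61% in cKO, a log2 ratio of 0.23 (0.22 to 0.23). Of these, 79 had a ratio above 0, against 38.7% of all genes measured. At least 1.2-fold higher in cKO were 32 of the 85, against 17% of the 21256 genes measured, and 1 was at least 1.2-fold lower, against 32.5%. Their median log2 ratio was 0.24, whereas that of all genes was -0.105. The differences were small, since none reached 1.5-fold higher, a size that 5.89% of all genes reached. The 13 mitochondrial members took 1.06% of UMIs in WT and 1.05% in cKO (log2 ratio -0.01), with a median of -0.16 and 4 of 13 above 0. None of the 13 was 1.2-fold higher (all genes 17%) and 2 were lower by that size (32.5%). The ratio of mitochondrial to nuclear member UMIs was thus 0.476 in WT and 0.403 in cKO. The difference was spread over the nuclear parts of the 5 complexes: complex I summed to 6841 CPM in WT and 8005 in cKO (0.23), II to 417 and 486 (0.22), III to 2528 and 3030 (0.26), IV to 5764 and 6640 (0.20) and V to 6742 and 7921 (0.23). The mitochondrial parts differed from each other, with complex I at 6242 and 6235 CPM (0.00), III at 2863 and 3033 (0.08), IV at 1181 and 997 (-0.24) and V at 315 and 253 (-0.32). In sums over cells, a changed cell mix and a changed amount of RNA per cell cannot be told apart. The cell classes differ between the libraries, so the values are given within classes below.

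**Figure D1:**
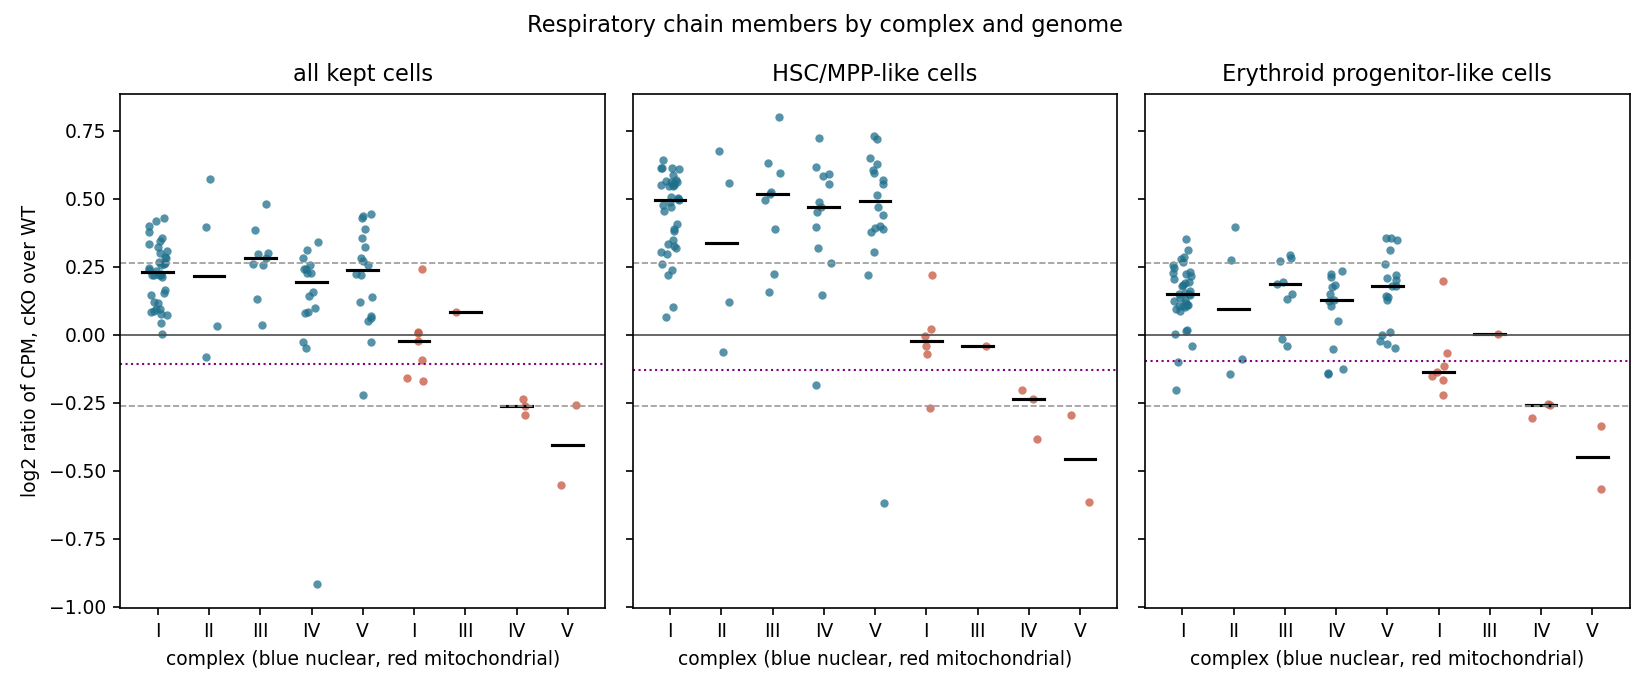
Log2 ratio of cKO over WT CPM (vertical axis) for each member, grouped by complex and genome (horizontal axis), in all kept cells, HSC/MPP-like cells and erythroid progenitor-like cells, with 1 point per gene and a black bar at each median. Dashed lines mark 1.2-fold and the dotted line the median of all genes. Nuclear members lie mostly above 0 (79 of 85, 78 of 81 and 68 of 83), and mitochondrial members mostly at or below it.

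Cells were clustered without the member genes or any mt- gene, and clusters were named from marker lists. A class was described where it held at least 100 cells in each library, which 9 classes did. The HSC/MPP-like class (haematopoietic stem cells and multipotent progenitors) had 1067 WT and 528 cKO cells, and the erythroid progenitor-like class 2210 and 3336. Within a class a gene was measured where it had at least 50 UMIs over both libraries, so the number of measured members differs by class. Cox7a1, Ndufs6b, Cox6a2, Cox6c2 and mt-Nd4l were not measured among HSC/MPP-like cells, nor Cox4i2 and Cox6a2 among erythroid progenitors, and a gene that passes through 1 library alone is favoured towards that library.

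The share of nuclear members differed most between genotypes in HSC/MPP-like cells. It was 1.55% of UMIs in WT and 2.14% in cKO, a log2 ratio of 0.46 (0.45 to 0.47). At the level of single cells the median share was 1.43% in WT and 1.96% in cKO, and the middle 80% of cells spanned 0.91% to 1.97% and 1.23% to 2.65%, so the cells of the libraries overlap. Of 81 measured nuclear members, 78 had a ratio above 0 and 68 were at least 1.2-fold higher, against 18.4% of the 13716 genes measured in these cells. A single member was at least 1.2-fold lower, against 37.2% of all genes. Their median log2 ratio was 0.50, beside -0.13 for all genes. At 1.5-fold, 20 members were higher, against 4.88% of all genes. The class joins 4 clusters in unequal parts, and it is not made of stem cells alone. Cluster 16, with Mecom, Adgrl4 and Hlf among its leading genes, held 40.2% of its WT and 21.2% of its cKO cells. Cluster 17, led by Slc22a3 and Apoe, held 28.9% and 41.9%. Cluster 21, led by Pf4 and Prkg1 with Mecom and Meis1 also among its leading genes, held 21.6% and 34.8%. Within cluster 16 (429 WT and 112 cKO cells) the summed log2 ratio was 0.42, within cluster 17 (308 and 221) it was 0.36 and within cluster 21 (230 and 184) it was 0.45. Cluster 42, with 100 WT and 11 cKO cells of low depth (medians 1445 and 1995 UMIs), stood apart at -0.82.

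Erythroid progenitor-like cells carried more respiratory chain RNA than HSC/MPP-like cells in both libraries, and their difference between genotypes was smaller. Nuclear members took 2.47% of UMIs in WT and 2.75% in cKO, a log2 ratio of 0.15 (0.15 to 0.15), with 68 of 83 above 0. At least 1.2-fold higher were 14, against 11.1% of the 16015 genes measured, and none was lower by that size, against 24.8%. No member reached 1.5-fold higher, which 2.52% of all genes did. The median over members was 0.15 and that over all genes -0.10.

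In 5 other classes nuclear members also stood higher in cKO. In basophil and mast-like cells the share was 1.40% in WT and 1.82% in cKO, and 62 of 80 members were 1.2-fold higher (all genes 20.2%) with 1 lower (25.1%). In T, NK and innate lymphoid-like cells it was 0.971% and 1.18%, the lowest share of the 9 classes in WT, and 50 of 78 were higher (all genes 29.2%) and none lower (18.6%). GMP and neutrophil progenitor-like cells (GMP, granulocyte-monocyte progenitors) had 2.495% and 2.884%, with 31 of 84 higher (all genes 13.4%) and none lower (31.8%). Monocyte-like cells had 2.19% and 2.53%, with 27 of 83 higher (all genes 13.2%) and none lower (24.8%). Erythroblast-like cells had 2.28% and 2.57%, with 21 of 81 higher, a proportion near the 21.8% of all genes, and none lower (19.9%). Stromal and endothelial-like cells showed no difference in the sum (1.11% and 1.12%, log2 ratio 0.00, -0.03 to 0.03). There, 5 of 80 were higher (all genes 22.7%) and 4 lower (21.8%).

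Plasma-like cells went the other way. Nuclear members took 1.477% of UMIs in WT and 1.201% in cKO, a log2 ratio of -0.30 (-0.33 to -0.27), and 45 of 78 were at least 1.2-fold lower, near the 53.5% of all genes. None was higher, against 10.6%. Depth and immunoglobulin content moved with this result: the 188 WT cells had a median of 1881.5 UMIs and the 132 cKO cells 15186, and haemoglobin and immunoglobulin genes took 25.1% and 37.7% of UMIs. With those genes taken out of the total, an alternative chosen after seeing the data, the log2 ratio was -0.03 (-0.06 to -0.01), with 12 members lower and 7 higher. The class also joins cluster 35 (145 WT and 35 cKO cells) and cluster 40 (43 and 97), within which the log2 ratios were 0.04 and -0.14.

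Over single clusters with at least 100 cells in each library, whatever their name, the summed nuclear ratio was below 0 in 0 of 26, and ran from 0.00 in erythroblast-like cluster 12 to 0.45. The summed mitochondrial ratio was below 0 in 22 of the 26, from -0.23 to 0.15.

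**Figure D2:**
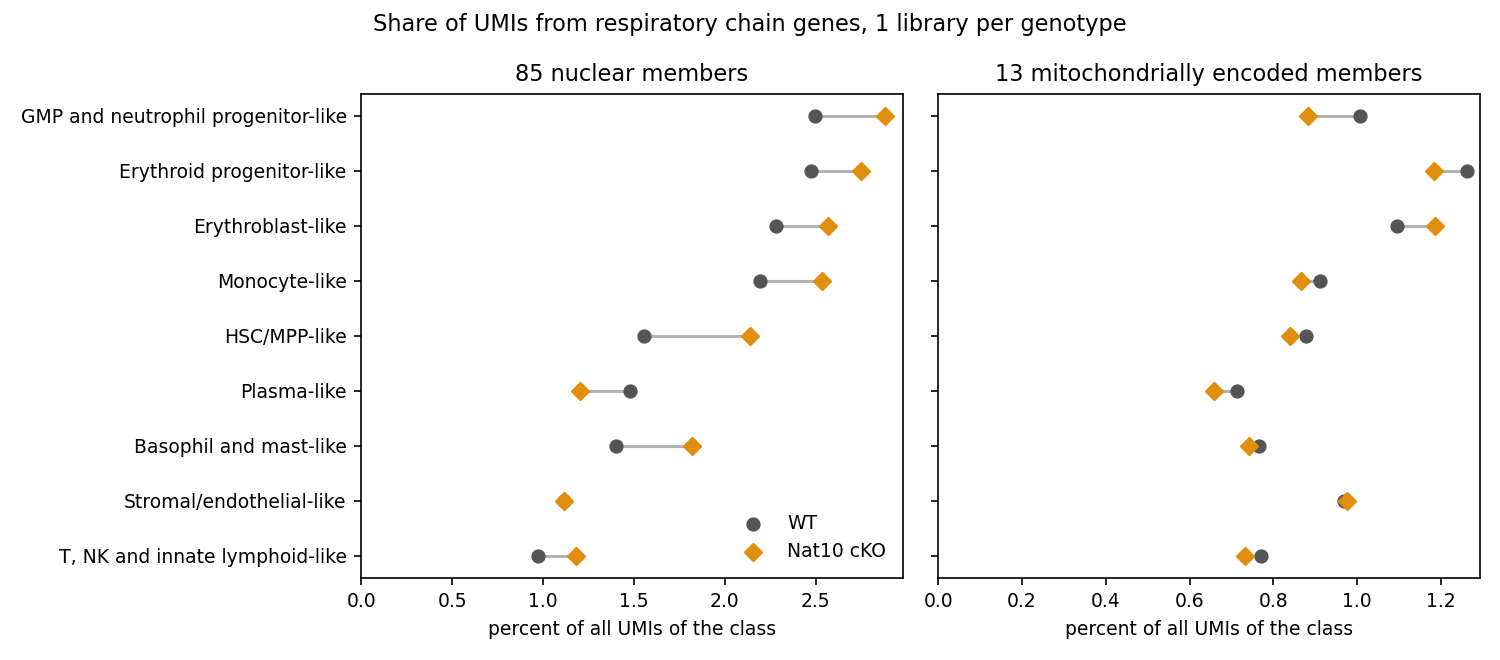
Percent of a class's UMIs (horizontal axis) taken by the 85 nuclear members (left) and the 13 mitochondrial members (right) in each of the 9 cell classes (rows), with 1 point for each library. The nuclear share is higher in cKO in HSC/MPP-like cells (1.55% and 2.14%) and lower in plasma-like cells (1.477% and 1.201%).

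Complex I, the NADH dehydrogenase and the largest complex, stood higher as a block in HSC/MPP-like cells. Its 38 nuclear members summed to 4861 CPM in WT and 6624 in cKO (log2 ratio 0.45). All 37 measured were above 0 and 32 were at least 1.2-fold higher (all genes 18.4%). Ndufs8, an iron-sulfur subunit of the peripheral arm, stood at 77.5 and 121 CPM, a log2 ratio of 0.64 (0.54 to 0.74). Ndufa9, an accessory subunit, stood at 62.9 and 96.3 CPM (0.61). At the low end were Ndufs1, the largest iron-sulfur core subunit, at 58.6 and 61.3 CPM (0.06, -0.06 to 0.19), and Ndufs4, an accessory subunit whose loss causes Leigh-like disease, at 151 and 162 CPM (0.10). The interval of Ndufs1 spans 0, so it differed by no more than counting error. Among erythroid progenitor-like cells, 35 of 38 complex I members were above 0. Of the 38, 5 were at least 1.2-fold higher, near the 11.1% of all genes. Ndufs8 was again among the highest there (104 and 133 CPM, 0.35), with Ndufa8 (153 and 190 CPM, 0.31), and Ndufs1 was at -0.10 (117 and 109 CPM). Over the 9 classes, Ndufs8 was above 0 in 9 and at least 1.2-fold higher in 7. Ndufa4, counted here by its symbol although it is known as a subunit of complex IV, had the highest WT level of the Nduf genes, 472 CPM over all kept cells.

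Complex II, succinate dehydrogenase, is the only complex that also belongs to the citric acid cycle, and its 4 subunits did not move together. Sdhb, the iron-sulfur subunit, stood at 88.8 CPM in WT and 131 in cKO in HSC/MPP-like cells, a log2 ratio of 0.56 (0.46 to 0.65). Sdhd, one of the membrane anchors, stood at 51.2 and 81.7 CPM (0.67, 0.55 to 0.80). Sdhc, the other anchor, was at 62.9 and 68.4 CPM (0.12). The level of Sdha, the flavoprotein that oxidises succinate, was 130 and 125 CPM (-0.06, -0.15 to 0.02), a difference within counting error. The order was the same among erythroid progenitors, with Sdhd at 113 and 149 CPM (0.40, 0.36 to 0.43), Sdhb at 131 and 159 CPM (0.28), Sdhc at 97.5 and 91.7 CPM (-0.09) and Sdha at 169 and 153 CPM (-0.14, -0.18 to -0.11). Sdhb was above 0 in 9 of 9 classes and 1.2-fold higher in 7, Sdhd was above 0 in 7 and 1.2-fold higher in those 7, and Sdha was above 0 in 1, the T, NK and innate lymphoid-like cells (0.03). In plasma-like cells Sdhd was at -0.56.

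**Figure D3:**
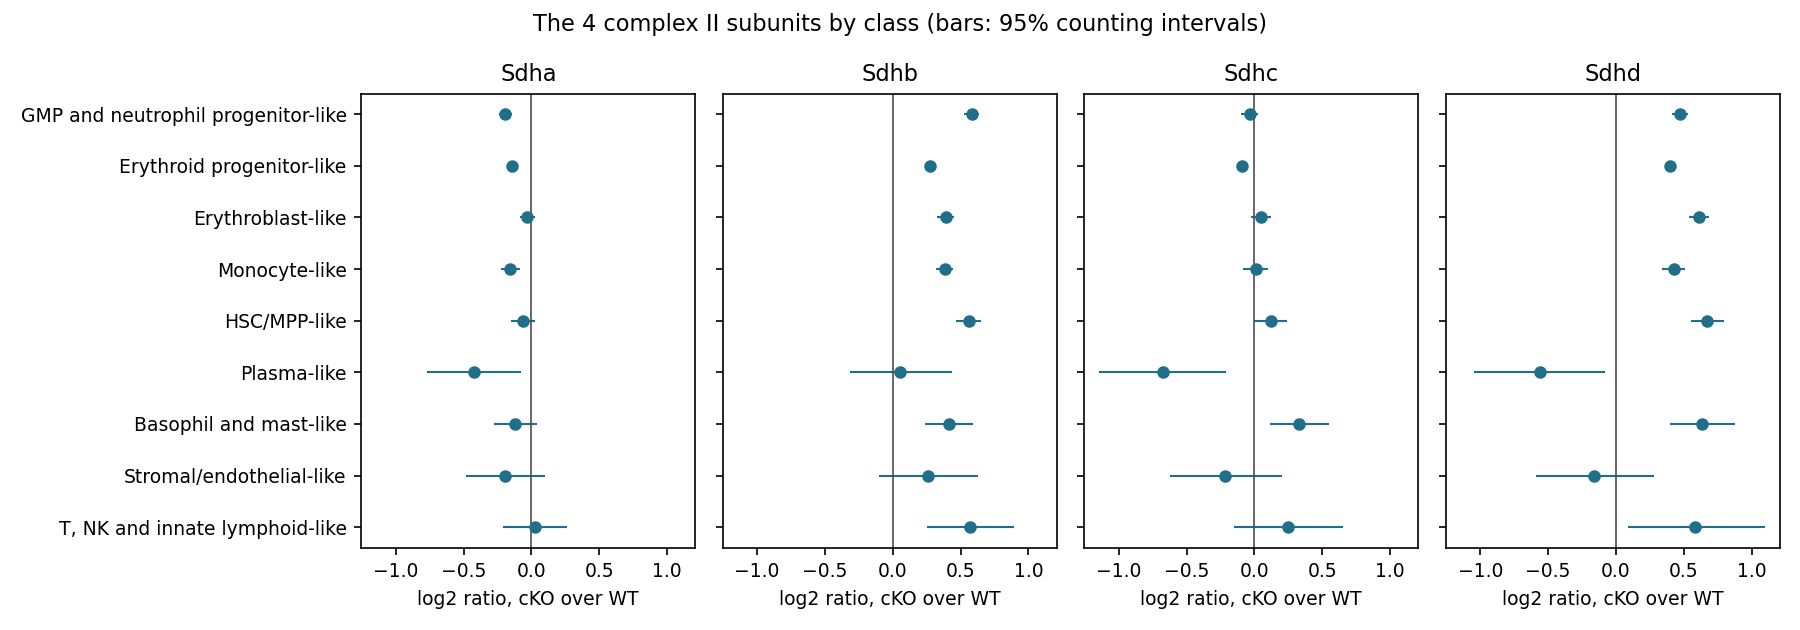
Log2 ratio of cKO over WT CPM (horizontal axis) for Sdha, Sdhb, Sdhc and Sdhd, 1 panel each, in the 9 cell classes (rows), with bars for the 95% counting interval. Points of Sdhb lie right of 0 in 9 of 9 classes and those of Sdhd in 7, whereas Sdha lies right of 0 in 1.

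Nuclear respiratory chain promoters are known for binding sites of NRF1, of the ETS family factor GABP (NRF2) and of YY1. RefSeq promoters of build GRCm38.p6 (250 bases before to 50 after the start) were matched by symbol to 67 of 84 nuclear symbols, giving 72 promoters, whereas the count files use mm39 and share no coordinates with them. On either strand the NRF1 core GCATGCGC occurred in 10 of 72 (13.9%), against 2.71% of 32851 promoters of the same length. The ETS core CCGGAAG occurred in 17 (23.6%, all promoters 8.86%) and the YY1 core AAGATGGC in 10 (13.9%, all promoters 2.75%). At least one core occurred in 31 (43.1%, all promoters 13.3%). In HSC/MPP-like cells the median log2 ratio was 0.52 over the 10 measured genes with the NRF1 core and 0.50 over the 55 without. It was 0.47 over the 17 with the ETS core and 0.51 over the 48 without, and 0.53 over the 10 with the YY1 core and 0.49 over the 55 without. Members with a core thus did not stand apart from those without. As examples from complex II, the 250 bases before the start are given for Sdhd (chr9:50603850-50604099, minus strand) and Sdha (chr13:74350241-74350490, minus strand). The ETS core of Sdhd, on the reverse strand, is in capitals, and in Sdha none of the 3 cores was found. Atp5g2 (chr15:102671048-102671297, minus strand), which encodes the c-ring of complex V, is given as an NRF1 example, with the core on both strands overlapping in the capitals. A match describes letters only.
Sdhd: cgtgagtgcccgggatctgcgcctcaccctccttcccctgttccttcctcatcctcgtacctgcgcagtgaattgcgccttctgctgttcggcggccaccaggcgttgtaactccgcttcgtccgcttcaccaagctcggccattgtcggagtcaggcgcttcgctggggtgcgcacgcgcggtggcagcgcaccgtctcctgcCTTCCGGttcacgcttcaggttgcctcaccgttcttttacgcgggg
Sdha: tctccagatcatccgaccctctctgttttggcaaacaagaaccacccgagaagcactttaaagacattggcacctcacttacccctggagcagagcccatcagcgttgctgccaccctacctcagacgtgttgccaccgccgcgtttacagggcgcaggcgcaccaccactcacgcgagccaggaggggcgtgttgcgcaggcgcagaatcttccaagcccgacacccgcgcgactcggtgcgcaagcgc
Atp5g2: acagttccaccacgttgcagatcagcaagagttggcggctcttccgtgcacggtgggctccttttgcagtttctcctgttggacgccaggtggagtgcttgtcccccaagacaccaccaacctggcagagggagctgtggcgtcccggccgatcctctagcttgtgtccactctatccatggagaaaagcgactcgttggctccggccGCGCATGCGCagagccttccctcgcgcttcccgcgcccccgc

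Complex III, which passes electrons from ubiquinol to cytochrome c, was led by Cyc1, its cytochrome c1 haem subunit. Cyc1 stood at 99.3 CPM in WT and 173 in cKO among HSC/MPP-like cells, a log2 ratio of 0.80 (0.72 to 0.89), the highest of the nuclear members there. Uqcrq, a small subunit, followed at 222 and 344 CPM (0.63). All 9 members were above 0 and 7 were 1.2-fold higher (all genes 18.4%). The exceptions were Uqcrh, the hinge protein, at 360 and 401 CPM (0.16) and Uqcrc2, a core protein, at 116 and 136 CPM (0.22). Of the 9, 7 were above 0 in erythroid progenitors, with Cyc1 at 223 and 273 CPM (0.29), Uqcrb at 259 and 315 CPM (0.28), and Uqcrh at 510 and 495 CPM (-0.04). Cyc1 was above 0 in 8 of 9 classes.

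Complex IV, cytochrome c oxidase, is the complex with most tissue-specific isoforms. Of 13 members measured in HSC/MPP-like cells, 12 were above 0 and 11 were 1.2-fold higher (all genes 18.4%). The sum went from 3896 to 5308 CPM (0.45). Cox7b, a small subunit, stood at 299 and 458 CPM (0.62). Cox4i2, the isoform of Cox4 known from lung and low oxygen, was higher in ratio but rare, at 2.08 and 3.45 CPM (0.73, 0.10 to 1.35). Cox7a2l, known as a factor of respiratory supercomplexes, was at 234 and 258 CPM (0.15). The exception was Cox6b2, known as the testis isoform of Cox6b, at 74.8 and 65.8 CPM (-0.19, -0.31 to -0.07). Its level was highest in the erythroid line, with 206 CPM in WT and 186 in cKO erythroid progenitors. Erythroblasts had 161 and 159.8 CPM, and monocytes 40.9 and 40.7 CPM. No complex IV member was 1.2-fold higher in erythroid progenitors (all genes 11.1%), and Cox5a (481 and 566 CPM) and Cox5b (605 and 707 CPM) led at 0.23 each. In GMP and neutrophil progenitor-like cells Cox4i2 had the highest ratio of all members, at 1.88 and 4.08 CPM (1.11, 0.76 to 1.48).

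The common isoforms of complex IV outweighed the rare ones in each library. Over all kept cells Cox4i1 stood at 979 CPM in WT and 1147 in cKO, against 1.15 and 1.46 for Cox4i2. Cox6a1 stood at 336 and 330 CPM, against 3.74 and 1.98 for Cox6a2, and Cox7a2 at 417 and 498 CPM, against 0.681 and 0.721 for Cox7a1. Cox6b1 (451 and 528 CPM) and Cox6b2 (117 and 129.6 CPM) were closer in level. The ratio of Cox6a1 was -0.02 (above 0 with the trimmed-mean scaling described below), so it did not follow Cox4i1 (0.23), Cox6b1 (0.23) and Cox7a2 (0.26).

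The single nuclear member that was 1.2-fold lower over all kept cells was Cox6a2, the heart and muscle isoform of Cox6a, which is also known from plasmacytoid dendritic cells. It stood at 3.74 CPM in WT and 1.98 in cKO (-0.92). Lymphoid progenitor-like cluster 30 held 495 of its 984 WT UMIs (50.3%) and 154 of its 503 cKO UMIs (30.6%). Within that cluster it stood at 125.6 and 99.7 CPM (-0.33, -0.60 to -0.07). Markers of plasmacytoid dendritic cells were also lower in cKO: they summed to 610 CPM over all WT and 381 over all cKO cells, and Siglech was at 3.36 and 0.815 CPM. They summed to 2366 and 1514 CPM in cluster 30, where 10 of 11 had UMIs in WT and 9 in cKO. Their level was higher in monocyte-like cluster 14, at 4994 and 3672 CPM, where Cox6a2 stood at 38.4 and 24.3 CPM. In monocyte-like cluster 15 Cox6a2 stood the other way, at 9.78 and 16.2 CPM, while the markers summed to 2220 and 2067 CPM. Siglech stood at 43.1 CPM in WT and 11.001 in cKO in cluster 30, and at 84.3 and 57.8 CPM in cluster 14. It was low in cluster 15, at 3.67 and 3.53 CPM. The marker sum and Siglech were thus lower together with Cox6a2 in clusters 30 and 14, but not in cluster 15. The part of plasmacytoid dendritic cells in the result was not tested.

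Complex V, the ATP synthase, had 17 of 18 members above 0 in HSC/MPP-like cells, 16 of them 1.2-fold higher (all genes 18.4%). Its nuclear sum there was 4764 CPM in WT and 6725 in cKO (0.50). Atp5g1, one of 3 genes for the same mature c-ring protein, stood at 257 and 427 CPM (0.73, 0.68 to 0.78), and Atp5c1, the gamma subunit of the rotor, at 277 and 456 CPM (0.72). Over all kept cells the 3 c-ring genes stood at 461 and 604 CPM (Atp5g1, 0.39), 11.9 and 16.1 CPM (Atp5g2, 0.43) and 285 and 310.4 CPM (Atp5g3, 0.12). Atp5l, subunit g of the membrane part, was at 232 and 270 CPM (0.22) in HSC/MPP-like cells. The member that was 1.2-fold lower was the second row named Atp5o, at 19.1 and 12.4 CPM (-0.62, -0.89 to -0.36). The features list 2 genes of that name (ENSMUSG00000022956 and ENSMUSG00000116933) that overlap, so the split of reads between them is uncertain. Among erythroid progenitors 14 of 18 were above 0, led by Atp5c1 (405 and 518 CPM) and Atp5d, the delta subunit (384 and 491 CPM), both at 0.36. Atp5d was above 0 in 9 of 9 classes and 1.2-fold higher in 7. Atpif1, the inhibitor of the ATP synthase, is no member. It stood at 630 and 779 CPM in HSC/MPP-like cells (0.31) and at 1375 and 1402 CPM in erythroblasts (0.03), with a ratio of 0.03 among erythroid progenitors too.

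Some directions depended on the scaling. Total UMIs are the scale used above. Scaling by trimmed means (TMM) put the middle of all genes at -0.10 over all kept cells and within HSC/MPP-like cells, -0.11 among erythroid progenitors and -0.29 among plasma-like cells, and ratios relative to it are higher by those sizes. With TMM the ratio of Sdha turned above 0 in HSC/MPP-like cells and below 0 in T, NK and innate lymphoid-like cells. The ratios of Ndufs1, Sdhc, Uqcrh, Uqcrc2, Atp5a1 and Atp5l in erythroid progenitors also turned above 0 with TMM. The ratio of Ndufs1 in HSC/MPP-like cells changed sign when each cell weighed alike. The plasma-like nuclear sum was -0.01 with TMM.

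Across classes, members in ratio above 0 in at least 7 of the 9 numbered 32 of 38 in complex I, 2 of 4 in II, 8 of 9 in III, 8 of 16 in IV and 12 of 18 in V. Of the 80 nuclear members measured in at least 7 classes these are 77.5%, against 21.1% of 9067 genes. In WT, 34 nuclear members had their highest level in GMP and neutrophil progenitor-like cells and 31 among erythroid progenitors, with 8 in erythroblast-like and 6 in monocyte-like cells. Levels between genes are per captured 3′ tag, not per length.

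The mitochondrial members did not follow the nuclear ones. They took 0.877% of UMIs in WT and 0.840% in cKO HSC/MPP-like cells (-0.06), with 2 of 12 above 0 and 4 at least 1.2-fold lower, near the 37.2% of all genes. Among erythroid progenitors they took 1.26% and 1.18% (-0.09), with 2 of 13 above 0 and 3 lower, near the 24.8% of all genes. In GMP and neutrophil progenitor-like cells the share was 1.01% and 0.883% (-0.19) and 7 of 13 were lower (all genes 31.8%). Erythroblast-like cells were the exception at 1.10% and 1.19% (0.12, 0.11 to 0.12), with 6 of 13 above 0. This class joins clusters in unequal parts: cluster 4 held 19.3% of its WT and 37.4% of its cKO cells, and cluster 5 held 37.4% and 17.6%. Within cluster 4 the mitochondrial log2 ratio was -0.03 and within cluster 22 it was -0.06, whereas it was 0.07 within cluster 5 and 0.15 within cluster 12. Cluster 34 (67 WT and 128 cKO cells) had mitochondrial shares of 3.06% and 3.11% (0.02). It held 3.85% of the WT and 7.90% of the cKO cells of the class. Within cluster 32 (99 and 109 cells) the ratio was -0.72. The part of the cluster mix in the class's ratio was not tested. The signs of the mitochondrial sums depend on the scaling. With TMM the sums were 0.09 over all kept cells, 0.04 among HSC/MPP-like cells and 0.02 among erythroid progenitors. The ratio of mitochondrial to nuclear member UMIs does not depend on the scaling. It was 0.564 in WT and 0.393 in cKO HSC/MPP-like cells, and 0.510 and 0.430 in erythroid progenitors. It was the other way in plasma-like cells (0.482 and 0.549) and level in stromal and endothelial-like cells (0.870 and 0.873).

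Within the mitochondrial RNA the genes differed from each other, in shares that do not depend on total scaling. As a share of mitochondrial member UMIs over all kept cells, mt-Nd3, a complex I subunit, went from 1.57% in WT to 1.87% in cKO, and was higher in 9 of 9 classes. The share of mt-Cytb, cytochrome b of complex III, went from 27.0% to 28.8%, higher in 9 of 9. A share can rise because other shares fall, and in CPM mt-Cytb was above 0 in 7 classes and below 0 in 2. Lower in 9 of 9 were mt-Co1, the catalytic subunit of complex IV (8.80% and 7.54%), mt-Atp6, the proton channel subunit of complex V (2.30% and 1.94%), and mt-Atp8, its small partner (0.670% and 0.461%). These counts include differences within counting error. Such were mt-Atp6 in basophil and mast-like, plasma-like, stromal and endothelial-like, and T, NK and innate lymphoid-like cells. So were mt-Co1 in plasma-like cells, and mt-Atp8 and mt-Nd3 in T, NK and innate lymphoid-like cells. The share of mt-Co2 was lower in 8 classes and that of mt-Co3 in 7. These 5 genes of complexes IV and V lie next to each other on the mitochondrial DNA, in the order mt-Co1, mt-Co2, mt-Atp8, mt-Atp6 and mt-Co3, and mt-Nd3 follows directly. The reading frames of mt-Atp8 and mt-Atp6 overlap by 43 bases and share 1 transcript, as do those of mt-Nd4l and mt-Nd4, which overlap by 7 bases, so UMIs within each pair cannot be told apart with certainty.

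In CPM over all kept cells, mt-Atp8 stood at 71.0 in WT and 48.5 in cKO (-0.55) and mt-Nd3 at 167 and 197 (0.24). Among HSC/MPP-like cells mt-Atp8 was at 61.1 and 39.9 CPM (-0.62) and mt-Nd3 at 143 and 166 CPM (0.22). In plasma-like cells mt-Atp8 was at 60.0 and 24.1 CPM (-1.31) and mt-Nd3 at 119 and 155 CPM (0.37). The abundant mt-Nd1 (2370 and 2379 CPM), mt-Nd4 (1536 and 1549 CPM) and mt-Cytb (2863 and 3033 CPM) differed by less than 0.1 on the log2 scale over all kept cells. The mitochondrial ribosomal RNAs, no members, were lower over all kept cells, with mt-Rnr1 at 2242 and 1977 CPM and mt-Rnr2 at 3868 and 3467 CPM. Within classes both were below 0 in 6 and above 0 in 3, the erythroblast-like, stromal and endothelial-like, and T, NK and innate lymphoid-like cells.

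**Figure D4:**
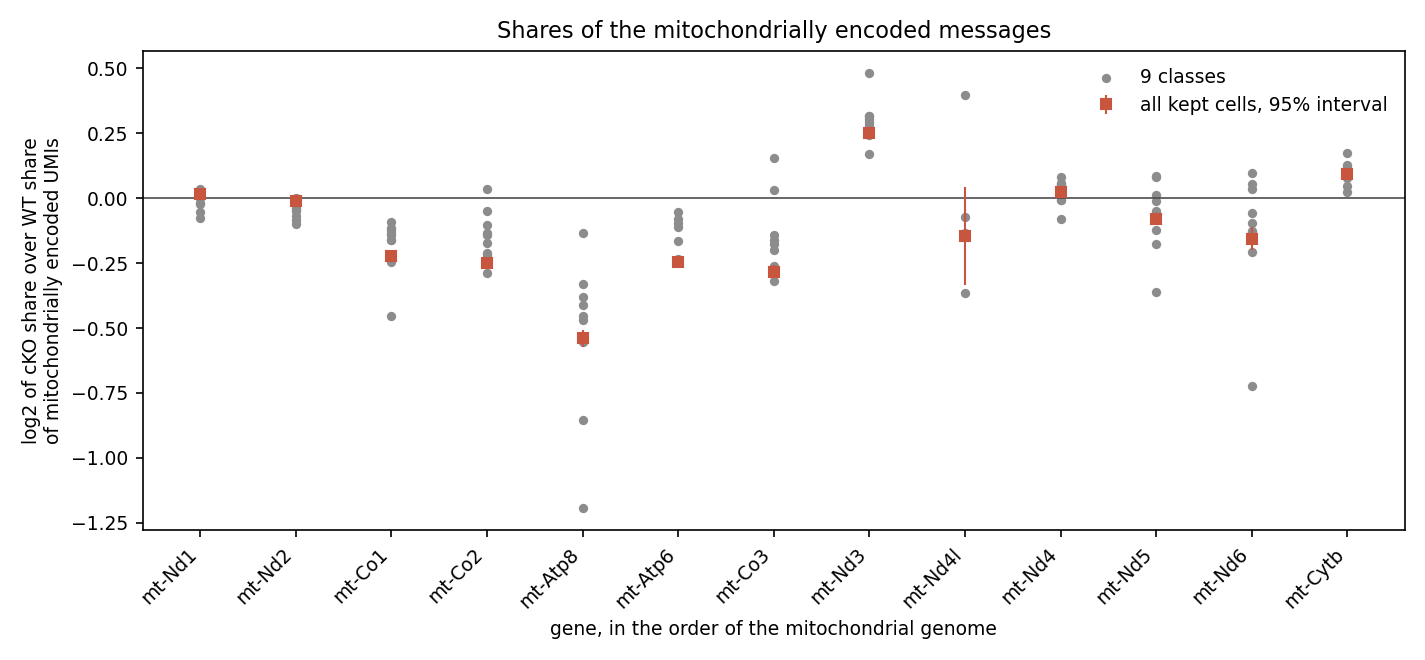
Log2 ratio of cKO over WT for each gene's share of mitochondrial member UMIs (vertical axis), with genes in their order on the mitochondrial DNA (horizontal axis). Grey points are the 9 classes, and red squares with bars are all kept cells with the 95% counting interval. The genes from mt-Co1 to mt-Co3 lie mostly below 0, and mt-Nd3 and mt-Cytb above it.

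Gene length moved with the ratio over all genes. Nuclear members have a median genomic span of 7.206 kb, against 25.027 kb for other coding genes, and in HSC/MPP-like cells short genes stood higher in cKO than long ones. In these cells the members stood higher than other genes of like span. Between 3 and 10 kb the median log2 ratio in HSC/MPP-like cells was 0.51 over 42 members and 0.13 over other genes, with 38 of the 42 members at least 1.2-fold higher against 37.1% of the others. Between 10 and 30 kb it was 0.52 over 21 members and -0.03 over others, with 17 higher against 20.5%. Under 3 kb the medians were 0.44 and 0.26. Among erythroid progenitors the gap was smaller, at 0.18 and 0.05 between 3 and 10 kb, and the medians under 3 kb were 0.11 and 0.11. There, 8 of 42 members between 3 and 10 kb were at least 1.2-fold higher, near the 16.5% of the others. Under 3 kb 2 of 14 were higher, against 26.0%, and between 10 and 30 kb 4 of 20, against 8.19%. In erythroblast-like cells 11 of 42 were higher between 3 and 10 kb, against 34.7%. Under 3 kb 2 of 13 were, against 40.0%, and between 10 and 30 kb 8 of 20, against 22.8%. The part of span in the members' result was not tested.

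**Figure D5:**
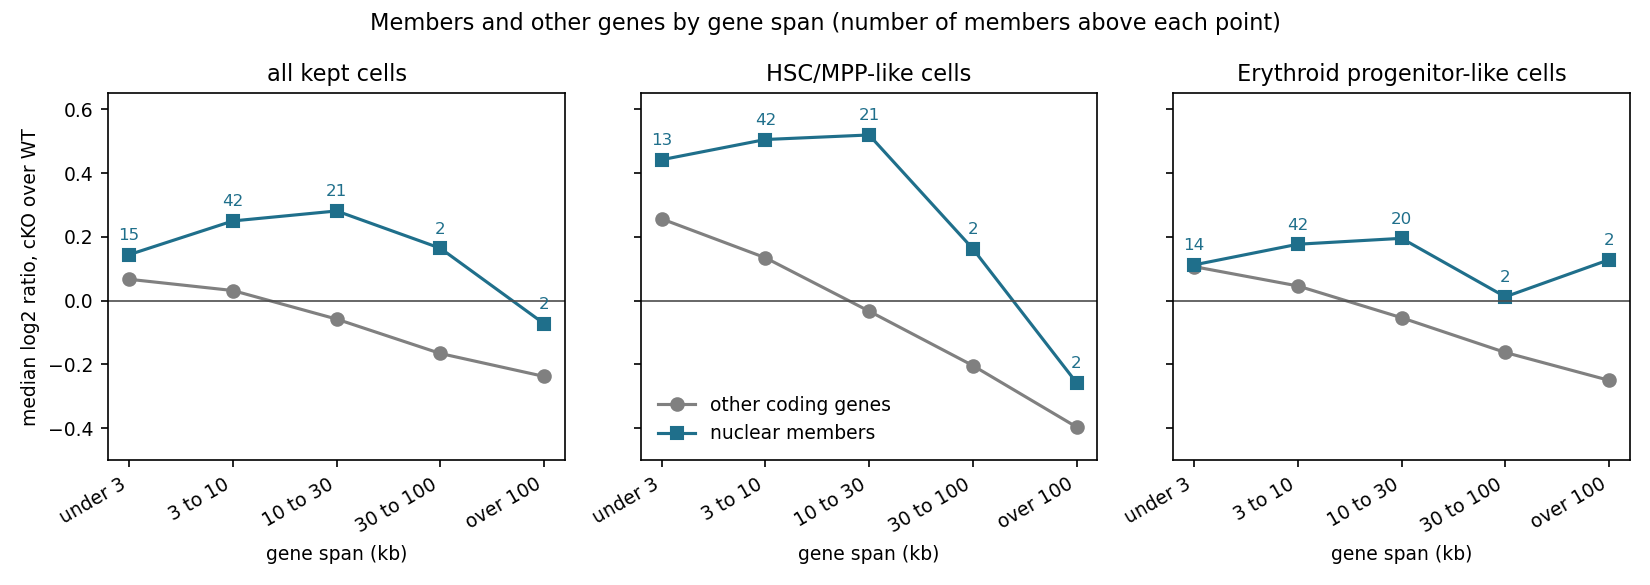
Median log2 ratio of cKO over WT (vertical axis) in bins of genomic span (horizontal axis, kb), for nuclear members and for other coding genes, with 1 panel per set of cells and the number of members in each bin. In HSC/MPP-like cells the member points lie above those of other genes in each bin.

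Genes that build and serve the respiratory chain were read from 9 lists, of which the mitochondrial ribosomal RNAs are given above. Over all genes of HSC/MPP-like cells, 18.4% were 1.2-fold higher and 37.2% lower, with a median of -0.13. In the list of protein import genes, 24 of 24 were above 0 in HSC/MPP-like cells and 21 were 1.2-fold higher (median 0.62), with Hspe1, the chaperonin cofactor of the matrix, at 472 and 829 CPM (0.81) and Timm13 at 0.78. Among erythroid progenitors 23 of the 24 were above 0 and 12 higher (median 0.25, all genes 11.1%). All 8 genes of cytochrome c and the inner membrane carriers were 1.2-fold higher in HSC/MPP-like cells, among them Cycs, cytochrome c itself, at 205 and 358 CPM (0.81), and Slc25a4, an ADP/ATP carrier, at 0.70. Of 35 assembly factors of complexes II to V, 31 were above 0 and 22 higher (median 0.32), led by Coa4 (0.73), with Sco1, a copper chaperone of complex IV, at -0.17. Of 15 complex I assembly factors 13 were above 0 and 7 higher (median 0.25), among them Ndufaf3 (0.52). Of 13 coenzyme Q genes 9 were above 0, 4 higher and 2 lower, from Coq7 (0.71) to Coq8b (-0.37). The 18 citric acid cycle genes had 11 above 0, 5 higher and 2 lower, with Mdh2, malate dehydrogenase, at 0.64 and Pdk1, an inhibitor of pyruvate entry, at -0.50.

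Regulators did not stand higher with the members. Of 12 measured transcriptional regulators of mitochondrial biogenesis, 1 was above 0 in HSC/MPP-like cells, none was 1.2-fold higher (all genes 18.4%) and 5 were lower (median -0.18), near the 37.2% lower and the median of -0.13 of all genes. Gabpb1, a subunit of GABP, stood at 98.0 and 65.5 CPM (-0.58), and Tfeb, known for lysosome genes, was at -0.66. Among erythroid progenitors 1 of 12 was above 0 and 2 were lower (all genes 24.8%), among them Nrf1, at 194 and 159 CPM (-0.29). Of 24 genes that express the mitochondrial DNA, 15 were above 0 in HSC/MPP-like cells, 6 higher and 2 lower (median 0.07). Slirp, which stabilises mitochondrial mRNA, stood at 57.4 and 90.4 CPM there (0.66). In erythroid progenitors, where the median of all genes was -0.10, its partner Lrpprc was at -0.26. These values come from different cells and are not compared.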

How the data were processed

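The authors deposited raw UMI counts per gene and cell barcode, aligned to mm39 with Cell Ranger 7.1.0 per the submitters' processing notes. Cell-calling and annotation settings are not given in the sources used here. Members, marker lists and gene lists were chosen with earlier results of these data known, and the rule that names clusters was set after the clusters were seen. Barcodes were filtered as stated in the report, and 592 WT (4.72%) and 544 cKO (4.84%) predicted doublets were removed. Counts scaled to 10000 gave 2000 variable genes (members and mt- genes left out), 30 principal components, 15 neighbours and Leiden clusters at resolution 1.5 (scanpy 1.11.5), 52 in all. Clusters were named from 18 marker lists. UMIs were summed per library and class and scaled to CPM, 0.5 was added to each sum for the log2 ratio, and intervals are exact conditional binomial 95% intervals. No significance test was possible with 1 library per genotype, so a difference of at least 1.2-fold was counted. Genes named in each complex are the 2 highest and 2 lowest in ratio, and others were chosen after their values were seen. The code was tested on simulated data. TMM factors came from edgeR 4.0.16 in R 4.3.3, used for scaling only. Of the marker and gene lists, 2 symbols were not matched. Tags of -ps pseudogenes equal 0.0492% of nuclear member UMIs. Levels of some lineage antigens are not reported here.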

Additional observations from a re-analysis of the deposited data

Results flagged for a closer look

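The summed log2 ratio of the nuclear members was -0.30 in plasma-like cells, below 0, while it was at 0.00 in stromal and endothelial-like cells, with an interval that spans 0, and above 0 in the other 7 classes. The direction differs between cell classes, and the difference was not tested, since each genotype has 1 library. In plasma-like cells median depth (1881.5 UMIs in WT, 15186 in cKO) and the share of haemoglobin and immunoglobulin UMIs (25.1% and 37.7%) move with it. The stromal and endothelial-like class joins clusters in unequal parts, and within its clusters 27, 37 and 43 the nuclear ratios were 0.12, 0.21 and 0.27.

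The summed log2 ratio of the mitochondrial members was 0.12 in erythroblast-like cells, while it was -0.09 in erythroid progenitors and -0.19 in GMP and neutrophil progenitor-like cells. This difference was not tested either. The class's cells sit in different clusters in each library, and of its 4 clusters with at least 100 cells in each, the ratio was -0.03 in cluster 4 and -0.06 in cluster 22, 0.07 in cluster 5 and 0.15 in cluster 12. Cluster 34, with mitochondrial shares of 3.06% in WT and 3.11% in cKO, held 3.85% of the class's WT and 7.90% of its cKO cells. Without haemoglobin and immunoglobulin UMIs, which took 3.25% in WT and 2.17% in cKO erythroblast-like cells, the ratio of the class was 0.10.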

How the results depend on the processing

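Every median of nuclear members stayed above 0 under the alternatives run, and every median of mitochondrial members below 0. This held in all kept cells, HSC/MPP-like cells and erythroid progenitor-like cells. A value was counted as unmoved when it lay within a binomial order-statistic interval of the median over members. That interval reflects the spread between genes and can be wide, so the rule cannot show that an unmoved value is the same. The nuclear median over all kept cells was 0.33 with TMM, 0.31 with median-of-ratios scaling and 0.27 when cells weighed alike. In HSC/MPP-like cells it was 0.60 with TMM, 0.61 with median-of-ratios and 0.44 with the cell mix of WT, and in erythroid progenitor-like cells 0.26, 0.26 and 0.13. The mitochondrial median in erythroid progenitor-like cells was -0.056 with TMM and -0.0607 with median-of-ratios. Members 1.2-fold higher over all kept cells numbered 53 with TMM and 53 with median-of-ratios, and 0 at 1.5-fold; 2 were lower when cells weighed alike. In HSC/MPP-like cells 20 were higher at 1.5-fold. In erythroid progenitor-like cells 40 were higher with TMM, 39 with median-of-ratios and 0 at 1.5-fold. Other filters on depth, mt- share, doublets, cluster resolution and gene floor moved none of these values by that rule. Nor did scaling without mt- or without haemoglobin and immunoglobulin UMIs (the last chosen after seeing the data). No paired analysis was possible because each genotype has 1 library. Leaving out a replicate was not possible for the same reason. The intervals cover counting error only, and with 1 library per genotype a difference between mice, library preparation or cell mix and one between genotypes cannot be told apart.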
